A study of Mus musculus with 9 samples.

Results

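The 34 genes described here encode the machinery that carries a growing secretory protein into the endoplasmic reticulum (ER), cuts off its signal peptide and attaches its N-linked glycans. They are a list of gene symbols drawn up for this machinery with earlier results of these data known, and all 34 were found among the 55385 genes of the count files. The members were Srp9, Srp14, Srp19, Srp68 and Srp72 of the signal recognition particle (SRP), Srprb of its receptor, and Sec61a1, Sec61b and Sec61g of the translocon channel. Sec62, Sec63, Tram1 and Hspa13 stood for partners of the channel and Rrbp1 for ribosome binding at the ER membrane. Ssr1, Ssr2, Ssr3 and Ssr4 form the translocon-associated protein (TRAP) complex, and Spcs1, Spcs2, Spcs3, Sec11a and Sec11c the signal peptidase. The oligosaccharyltransferase (OST) was represented by its catalytic subunits Stt3a and Stt3b and by Rpn1, Rpn2, Dad1, Ddost, Ost4, Tmem258, Ostc, Krtcap2 and Magt1.

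SRP binds a signal peptide as it leaves the ribosome and docks the complex on the ER membrane, where the chain is threaded through the Sec61 channel. Signal peptidase then cleaves the signal, and OST transfers a preassembled glycan to asparagines of the chain. Plasma cells, which secrete antibody, depend on this route, and the transcription factor XBP1s, made after the ER stress sensor IRE1 splices Xbp1 mRNA, is known to activate many of its genes.

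Total splenocytes of mice were profiled by CITE-seq, which counts transcripts, as unique molecular identifiers (UMIs), and antibody tags in single cells. The 3 genotypes were WT, R594C/+ (heterozygous) and R594C/R594C (homozygous), where R594C is an amino acid change in IRE1, the product of Ern1, and the labels give no age, sex or strain. Live cells were sorted with DAPI, and each genotype was 1 droplet capture, so genotype and capture cannot be told apart. Hashtag antibodies marked 4 replicates of WT, 4 of R594C/+ and 2 of R594C/R594C. Whether each replicate was an animal of its own is not in the labels, and all p-values refer to the spread between these replicates, which may be technical. Xist, expressed from the inactive X chromosome of females, read 1234 to 1379 CPM of all RNA UMIs in the 4 R594C/+ replicates, WT replicate 2 and R594C/R594C replicate 2. It read 6.81 to 32.2 in the other 3 WT replicates and R594C/R594C replicate 1, which had the Y-linked Ddx3y at 145 to 194. R594C/+ minus WT is thus largely a comparison of female with male replicates.

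The captures gave 12263 WT, 14933 R594C/+ and 14287 R594C/R594C cells after filtering. The captures shared 40 to 67 barcodes in pairs. Cells marked as likely doublets made up 7.84% of hashtag singlets in R594C/R594C, against 3.26% in WT and 3.42% in R594C/+. Cells were clustered without the 34 members and a list of 57 other genes of the same pathway, and clusters were named from fixed markers. The plasma cell-like class was 1 cluster of 884 cells in which 11 of 12 listed plasma cell markers were raised, with 45 to 129 cells per replicate. The follicular-like B class held 14544 cells in 4 clusters, each with 6 to 10 of 10 listed markers raised. Levels are given as counts scaled to 1000000 UMIs that are not of immunoglobulin genes (CPM). The total of such UMIs ran from 351109 to 883107 per replicate in plasma cell-like cells and from 2219973 to 7528946 in follicular-like B cells. Levels of different genes are not compared, because the capture of 3′ ends differs between genes.

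The promoters of 6 members are shown because these genes mark the ends of the difference between plasma cell-like and follicular-like B cells described next: Ssr4 and Spcs1 are among the members that differed most, Sec62 and Dad1 among those that differed least, and Stt3a and Stt3b are the alternative catalytic subunits of OST, of which only the first was called higher in plasma cell-like cells. Each line gives the 250 bases before the start of the gene, 5′ to 3′ on the gene's strand, from RefSeq on GRCm38.p6 (the assembly also called mm10). Capitals mark 3 motifs searched on both strands: CCACG and CCAAT, the parts of the ER stress response element (ERSE), and ACGTG, a core of known XBP1 sites. Neighbouring matches that overlap, such as CCACG and ACGTG in CCACGTG, run together in capitals.
Ssr4 (chrX:73786773-73787022, plus strand): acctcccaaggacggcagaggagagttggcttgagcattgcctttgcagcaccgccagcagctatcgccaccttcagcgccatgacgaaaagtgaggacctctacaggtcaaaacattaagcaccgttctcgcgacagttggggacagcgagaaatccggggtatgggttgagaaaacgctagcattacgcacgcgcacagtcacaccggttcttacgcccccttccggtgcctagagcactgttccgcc
Spcs1 (chr14:31001667-31001916, minus strand): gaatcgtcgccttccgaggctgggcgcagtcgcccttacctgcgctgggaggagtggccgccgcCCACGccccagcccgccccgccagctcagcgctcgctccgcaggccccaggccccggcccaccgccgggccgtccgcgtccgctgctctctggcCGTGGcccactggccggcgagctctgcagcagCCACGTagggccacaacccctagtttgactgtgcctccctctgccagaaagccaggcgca
Sec62 (chr3:30792626-30792875, plus strand): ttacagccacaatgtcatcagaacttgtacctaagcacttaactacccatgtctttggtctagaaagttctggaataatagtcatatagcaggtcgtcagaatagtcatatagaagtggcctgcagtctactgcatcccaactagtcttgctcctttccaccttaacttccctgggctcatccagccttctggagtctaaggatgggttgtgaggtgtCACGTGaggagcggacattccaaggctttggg
Dad1 (chr14:54253930-54254179, minus strand): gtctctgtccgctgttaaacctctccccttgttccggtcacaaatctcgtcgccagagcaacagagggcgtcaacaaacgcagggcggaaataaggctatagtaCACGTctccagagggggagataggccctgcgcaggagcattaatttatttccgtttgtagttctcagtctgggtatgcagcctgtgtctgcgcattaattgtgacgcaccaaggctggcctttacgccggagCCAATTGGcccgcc
Stt3a (chr9:36767623-36767872, minus strand): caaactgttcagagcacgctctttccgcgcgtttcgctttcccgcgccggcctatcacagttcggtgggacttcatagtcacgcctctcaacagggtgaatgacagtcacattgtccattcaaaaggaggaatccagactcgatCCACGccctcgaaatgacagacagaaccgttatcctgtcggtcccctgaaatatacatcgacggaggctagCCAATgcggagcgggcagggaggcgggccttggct
Stt3b (chr9:115310469-115310718, minus strand): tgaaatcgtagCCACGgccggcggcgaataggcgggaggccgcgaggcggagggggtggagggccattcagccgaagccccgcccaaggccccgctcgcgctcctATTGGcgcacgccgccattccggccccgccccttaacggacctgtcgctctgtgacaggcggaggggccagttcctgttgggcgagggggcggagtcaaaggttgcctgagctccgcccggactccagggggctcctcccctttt

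Of the 34 members, 25 had such a window. CCACG occurred in 13 of the 25 (52.0%), against 31.0% of the 27025 genes with a window. ACGTG occurred in 10 of the 25 (40.0%), against 18.5% of all windows. CCAAT occurred in 12 of the 25 (48.0%), against 37.5% of all windows. The full ERSE and ERSE-II, in which CCAAT and CCACG stand at a fixed spacing, occurred in 0 of the 25 windows, and in 0.13% and 0.037% of all windows. Among the windows shown, those of both strongly and weakly different genes held matches, except that of Ssr4, which held 0 of the 3 short motifs. Of the members not shown, the windows of Srp72, Sec61b and Sec11a also held 0 of them. A match is a run of letters and not a measured binding site.

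Plasma cell-like cells had the highest level of 32 of the 34 members among 17 named cell classes. The summed level of the members was 23008 ± 1710 CPM (SD, n = 10 replicates) in plasma cell-like cells and 4022 ± 97.9 in follicular-like B cells. Germinal centre-like B cells followed plasma cell-like cells at 8337 ± 2034 (n = 10), then plasmacytoid dendritic cell (pDC)-like cells at 6059 ± 822 (n = 6, with 0 WT replicates of at least 10 cells) and type 1 conventional dendritic cell (cDC1)-like cells at 5364 ± 941 (n = 10). The order of these last 3 classes is not separated by their spread: the sum in germinal centre-like cells ran from 6797 to 13665 and that in cDC1-like cells from 4345 to 7446. The highest value was that of WT replicate 2 (22 cells), which also had the highest summed level of 12 plasma cell markers in the class, 12409 against 1444 to 5322 in the other 9, and the mean sum without it was 7745 ± 843 (SD, n = 9). The part of these markers in the level was not tested.

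Regulatory T-like cells (4661 ± 269), natural killer-like cells (4406 ± 222), monocyte-like cells (4369 ± 479), B1-like cells (4340 ± 225) and transitional-like B cells (4162 ± 202) came next, and neighbours in this order overlapped. Marginal zone-like B cells lay below follicular-like B cells in the sum, at 3732 ± 79.0 (n = 10). The lowest sums were those of migratory dendritic cell-like cells, 2772 ± 532 (n = 9), and of neutrophil-like cells, 2188 ± 329 (n = 10). Neutrophil-like cells came from 2 clusters that the genotypes filled unequally, with 4 WT, 96 R594C/+ and 33 R594C/R594C cells in the smaller.

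The exceptions to the plasma cell maximum were Sec11a, a catalytic subunit of signal peptidase, and Stt3b. Sec11a was highest in CD4 T-like cells at 192 ± 18.6 (SD, n = 10), where plasma cell-like cells had a mean of 175, a difference within 1 SD. Stt3b was highest in follicular-like B cells at 177 ± 13, followed by germinal centre-like B cells at 167 and plasma cell-like cells at 161. The other B lineage classes were close to it, with means of 144 in B1-like, 145 in marginal zone-like and 143 in transitional-like B cells, against 106 in pDC-like cells and 43.5 to 65.4 in the T, natural killer, monocyte, macrophage and type 2 dendritic cell classes. Sec62, a channel partner used in post-translational import, was highest in plasma cell-like cells at 326 ± 26.8, close to the 294 of regulatory T-like cells, and lowest in cDC1-like cells at 97.1.

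**Figure D1:**
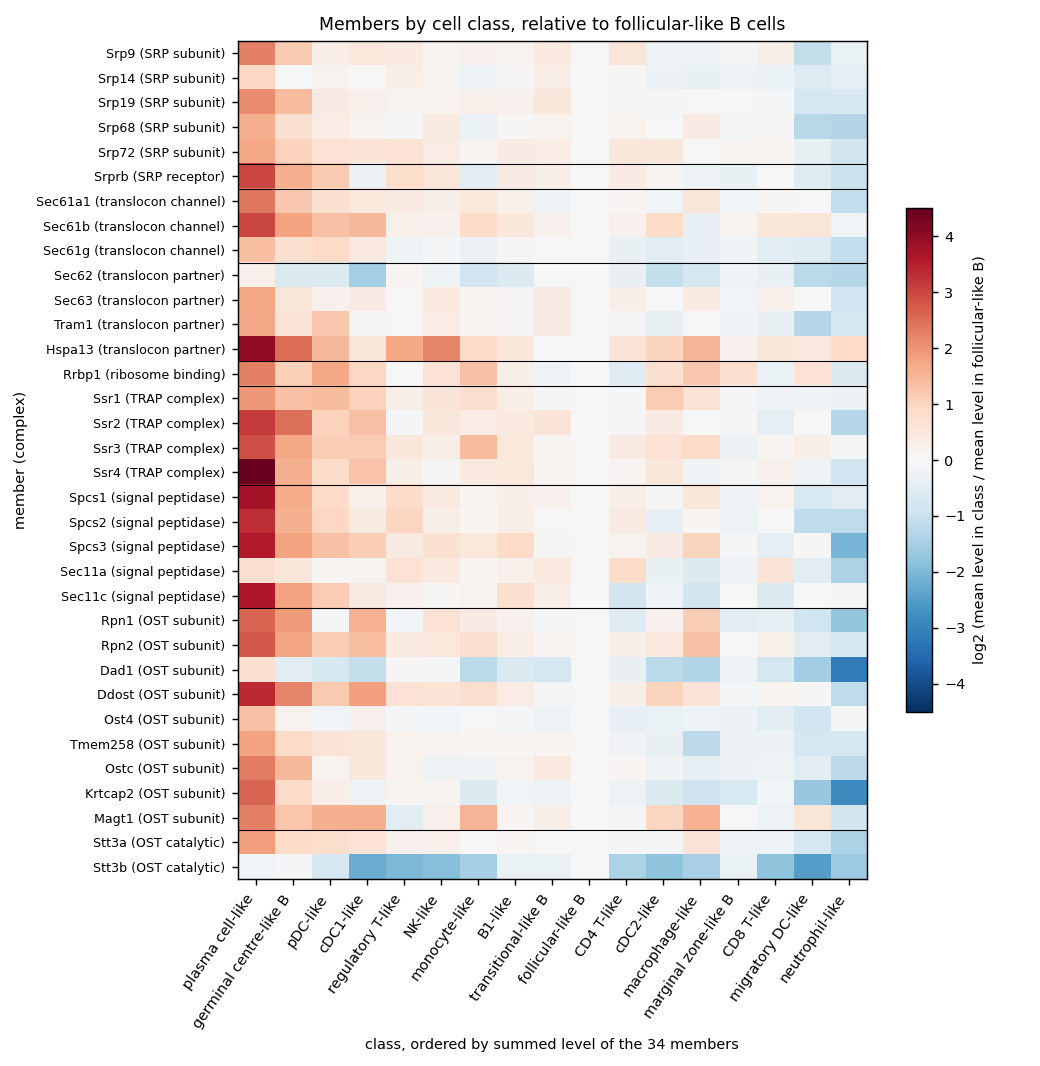
Mean level of each of the 34 members (rows, grouped by complex) in 17 named classes (columns, ordered by the summed level), as log2 of its ratio to the mean in follicular-like B cells (colour scale). The plasma cell-like column is the darkest for nearly every row, with Ssr4 at the top of the scale, while Stt3b is below its follicular level in the T, natural killer and myeloid classes.

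Next, plasma cell-like cells were compared with follicular-like B cells within each of the 10 replicates. The test was edgeR's quasi-likelihood test on summed counts with Benjamini-Hochberg adjustment over all genes. Of the 34 members, 33 were higher in plasma cell-like cells at an adjusted p under 0.05, where 34.4% of the 10399 genes tested were called higher. The median log2 fold of the members was 2.40, against -0.09 for all genes tested. The remaining member, Stt3b, had a log2 fold of -0.04 ± 0.10 (SE, adjusted p = 0.694).

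Of the complexes with more than 1 member, signal peptidase and TRAP had the highest medians. Ssr4, the delta subunit of TRAP, had a level of 3675 to 5145 (median 4490, n = 10) in plasma cell-like cells and of 194 to 220 (median 210) in follicular-like B cells. Its log2 fold was 4.55 ± 0.06 (SE, adjusted p = 1.15e-46), or 23.4-fold. The other TRAP subunits Ssr1, Ssr3 and Ssr2 had log2 folds of 2.09, 3.04 and 3.25, so the median of the complex was 3.14.

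Among the 5 signal peptidase genes the median log2 fold was 3.71. Spcs1, a small non-catalytic subunit, ran from 1065 to 1443 (median 1386) in plasma cell-like cells and from 82.2 to 116 (median 99.0) in follicular-like B cells, a 14.7-fold difference (log2 fold 3.88 ± 0.06, SE, adjusted p = 9.34e-44). The catalytic subunit Sec11c ran from 2217 to 2629 (median 2482) against 187 to 214 (median 199), a 13.6-fold difference (log2 fold 3.76 ± 0.05, SE, adjusted p = 3.72e-45). Spcs3, which is required for cleavage, was 13.1-fold higher (log2 fold 3.71) and Spcs2 10.9-fold higher (log2 fold 3.45). The other catalytic subunit, Sec11a, was 1.77-fold higher only (log2 fold 0.82 ± 0.07, SE, adjusted p = 1.29e-14), from 146 to 219 in plasma cell-like and 90.8 to 116 in follicular-like B cells.

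The targeting genes differed less. The 5 SRP subunits had a median log2 fold of 1.86, from 1.06 for Srp14, which pairs with Srp9 on the Alu domain of the particle, to 2.39 for Srp9 itself. Srprb, which anchors the SRP receptor in the membrane, had a log2 fold of 3.11 (adjusted p = 1.07e-31). In the channel, Sec61b was 8.83-fold, the pore-forming Sec61a1 5.59-fold and Sec61g 2.78-fold higher. Reads of Sec61g are uncertain because RefSeq lists 2 pseudogenes named for it.

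Among the partners of the channel, Hspa13, an ATPase of the HSP70 family in the ER, stood at 107 to 195 (median 156) in plasma cell-like and 6.97 to 11.3 (median 9.63) in follicular-like B cells. Its 17.1-fold difference (log2 fold 4.10 ± 0.09, SE, adjusted p = 2.28e-36) was second to that of Ssr4. Tram1 and Sec63 had log2 folds of 1.81 and 1.87, and Rrbp1, the ribosome-binding protein p180 of rough ER, one of 2.40. Sec62 was 1.28-fold higher (log2 fold 0.36 ± 0.06, SE, adjusted p = 2.45e-07), with a median level of 324 against 276 and replicates that overlapped between the classes.

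Within OST, Ddost, a subunit needed for a stable complex, was the most different, at 374 to 545 (median 485) against 36.5 to 48.9 (median 46.2), an 11.2-fold difference (log2 fold 3.48, adjusted p = 1.26e-39). Rpn1 and Rpn2, the ribophorins, had log2 folds of 2.74 and 2.88, Krtcap2 and Ostc, which link the STT3A form to the channel, 2.72 and 2.43, and Magt1, an oxidoreductase of the STT3B form, 2.41. Tmem258 and Ost4, small subunits, had log2 folds of 1.93 and 1.45. Dad1, a small subunit named as a defender against cell death, was 1.75-fold higher (log2 fold 0.81 ± 0.06, SE, adjusted p = 3.03e-14), at 580 to 968 against 448 to 533. Stt3a had a log2 fold of 1.99 (adjusted p = 3.89e-28), with 147 to 203 against 43.2 to 53.9, while Stt3b ran from 112 to 244 in plasma cell-like and from 158 to 200 in follicular-like B cells and overlapped.

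These folds are relative to the scaling: without TMM, on total counts that include immunoglobulin, the median of all genes moved from -0.09 to -1.51 and that of the members to 0.97. There Sec62 (-1.07), Dad1 (-0.62), Sec11a (-0.61) and Srp14 (-0.38) turned to lower, Ost4 (0.02) was no longer called and Stt3b (-1.48) was called lower, though each of them still lay above the shifted median of all genes, Stt3b by a small margin.

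**Figure D2:**
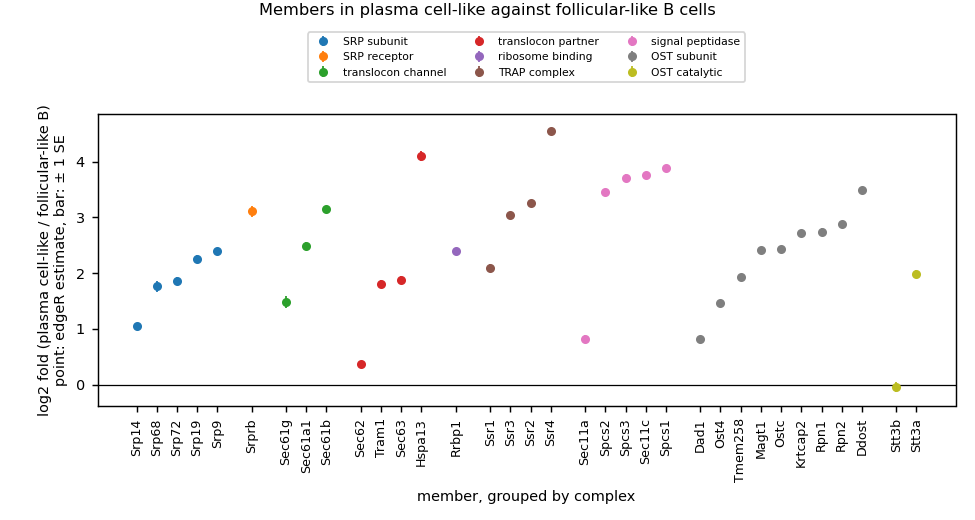
Log2 fold of each member in plasma cell-like against follicular-like B cells (vertical axis, edgeR estimate with a bar of 1 SE over 10 replicates), grouped and coloured by complex. Most complexes hold 1 member near the bottom of the plot (Srp14 at 1.06, Sec62 at 0.36, Sec11a at 0.82, Dad1 at 0.81 and Stt3b at -0.04) beside members that lie far above it.

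Genes of the same steps outside the 34 were read from the list of 57. Of the 54 tested, 42 were higher, 2 were lower and 10 were not called, where 34.4% of the 10399 genes tested were called higher. Their median log2 fold was 0.92, against -0.09 for all genes. The highest were Tram2 (4.69), a relative of Tram1, and H13 (4.04), the signal peptide peptidase. In the dolichol pathway, which builds the glycan that OST transfers, the highest were Alg2 (2.54), Dpagt1 (2.53) and Alg5 (2.43). Dolk (0.27), Dolpp1 (0.38), Dpm1 (-0.01) and Alg9 (0.05) of that pathway were not called. The lower genes were Tusc3 (-1.45, adjusted p = 5.04e-10), the alternative to Magt1 in OST, and Srd5a3 (-0.82, adjusted p = 5.24e-05), a dolichol reductase. Ern1 itself was 29.1-fold and Xbp1 55.8-fold higher in plasma cell-like cells. Xbp1 is among the 12 listed markers used to name this class, so its higher level there is not an independent result.

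Since paralogs and alternative partners behaved differently, their ratios within each class were compared, which needs no scaling between libraries. The ratios use the same counts and replicates as the folds above, so they restate those differences and are not separate support. The absolute ratio depends on how well each 3′ end is captured, so only its change between classes is read. Of 8 pairs, 6 had enough UMIs to test, with a two-sided exact sign-flip permutation test over 10 replicates whose smallest possible p is 0.00195. All 6 reached that value, and their adjusted p was 0.00195.

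Sec11c over Sec11a rose by 2.93 ± 0.24 on the log2 scale (SD, n = 10) from follicular-like B to plasma cell-like cells, with a higher ratio in 10 of 10 replicates. Stt3b over Stt3a fell by 2.03 ± 0.43, lower in 10 of 10, from a UMI ratio of 3.63 to one of 0.892. Magt1 over Stt3b, its catalytic partner, rose by 2.44 ± 0.45 in 10 of 10. Within these pairs, Sec11c and Stt3a thus took a larger share of the transcripts in plasma cell-like cells.

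Tram2 over Tram1 rose by 2.94 ± 0.37 in 10 of 10 replicates. Sec62 over Sec63, channel partners that work together, fell by 1.52 ± 0.15 in 10 of 10. Ostc over Krtcap2 fell by 0.30 ± 0.20 in 10 of 10, the smallest of the 6 changes. Sec61a2 and Tusc3 averaged 4.5 and 5.3 UMIs per replicate in plasma cell-like cells, too few for a test of their ratios to Sec61a1 and Magt1.

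**Figure D3:**
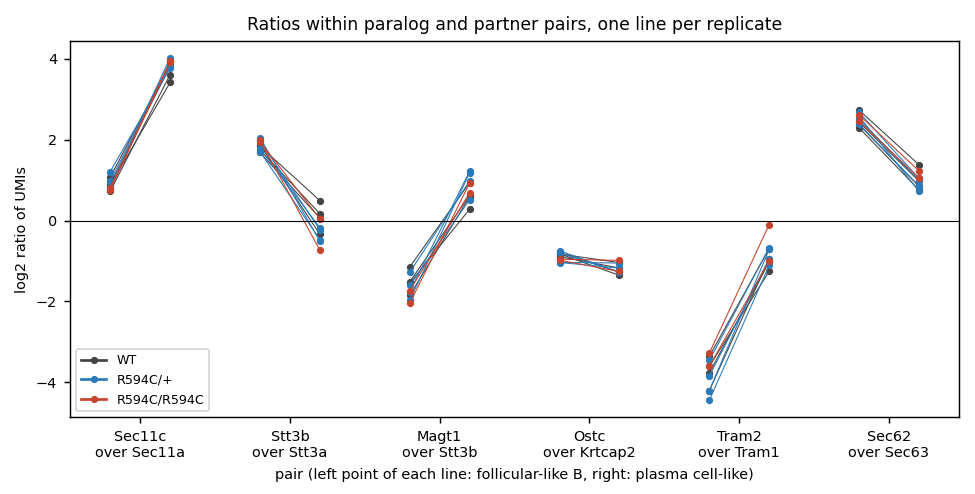
Log2 ratio of UMIs within 6 pairs (vertical axis) in follicular-like B cells (left end of each line) and plasma cell-like cells (right end), 1 line per replicate, coloured by genotype. Lines of the 3 genotypes run side by side: upward for Sec11c over Sec11a, Magt1 over Stt3b and Tram2 over Tram1, downward for Stt3b over Stt3a and Sec62 over Sec63, and slightly downward for Ostc over Krtcap2.

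B1-like and marginal zone-like B cells were compared with follicular-like B cells in the same way. In B1-like cells 15 of 34 members were higher, where 27.3% of 10270 genes were called higher, and 4 were lower, where 26.5% were called lower. These counts are 44.1% and 11.8% of the members, so the first is above and the second below the background. The largest differences in B1-like cells were in signal peptidase, with Spcs3 1.79-fold (log2 fold 0.84 ± 0.09, SE, adjusted p = 8.74e-12) and Sec11c 1.60-fold higher (log2 fold 0.68 ± 0.05, SE, adjusted p = 1.76e-18). The lower members were Dad1 (-0.68), Sec62 (-0.67), Stt3b (-0.35) and Krtcap2 (-0.18). In marginal zone-like B cells 4 members were higher, where 25.9% of 10226 genes were called higher, and 12 were lower, where 23.3% were called lower (11.8% and 35.3% of the members). Rrbp1 was 1.71-fold higher there (log2 fold 0.77 ± 0.04, SE, adjusted p = 6.57e-32), and Krtcap2 (-0.58) and Rpn1 (-0.40) were the lowest.

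The effect of genotype was read next, first at the mutated gene. The R594C change is a point change in the protein, so 3′ transcript counts of Ern1 do not check the labels. Ern1 stood at 89.9, 52.3, 39.9 and 46.0 CPM in the WT replicates, 54.8, 58.9, 74.8 and 50.2 in R594C/+ and 75.8 and 65.9 in R594C/R594C plasma cell-like cells, and the groups overlapped (R594C/R594C minus WT log2 fold 0.31, adjusted p = 0.825). Xbp1 mRNA, the substrate of IRE1, did not pass the test either (0.27, adjusted p = 0.555), and 3′ counts do not tell its spliced form.

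In plasma cell-like cells the members lay lower in R594C/R594C than in WT, by a moderate amount that passed the test for a single gene. The summed level was 23663.5, 23873.5, 23853 and 24720 CPM in the WT replicates and 23873, 23438, 23165 and 23721 in R594C/+. In R594C/R594C it was 20412 and 19363, below all 8 other replicates. The log2 fold of R594C/R594C minus WT was below 0 for 32 of 34 members, with a median of -0.29, against -0.01 over all 6788 genes tested. The median was -0.30 with immunoglobulin genes left out of the counts and -0.30 with DESeq2.

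1 member, Dad1, was called at an adjusted p under 0.05, where 0.28% of genes were called. DESeq2 also called 1. An unadjusted p under 0.05 was reached by 17 of 34 members. The share of all genes under that unadjusted limit is not given, here or for such counts below. Nor is the share of all genes below 0 given beside the counts of members or pathway genes below 0. These counts are therefore not read as results about the members. For 22 members both R594C/R594C replicates lay below every WT replicate, an arrangement that 8.87% of the 6788 genes showed, and for 0 members did both lie above. The 22 included all 5 signal peptidase genes, Srp9, Srp14, Srp19, Srp68 and Srp72, Sec61a1 and Sec61b, and Ssr1, Ssr3 and Ssr4. They also included Dad1, Ddost, Ostc, Krtcap2 and Stt3b of OST, with Tram1 and Hspa13. Some gaps between the higher R594C/R594C and the lowest WT value were very small. They were 331 against 332 for Srp19, 220 against 221 for Ssr1, 237 against 239 for Sec61a1 and 63.1 against 65.6 for Srp68. Log2 folds of Sec11c, Ssr3 and Srp19, also among the 22, were close to 0 (given below).

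Dad1 read 892, 853, 857 and 968 CPM in WT, 755, 819, 755 and 774 in R594C/+ and 580 and 638 in R594C/R594C. The 3 genotypes did not overlap, with R594C/+ between WT and R594C/R594C. The log2 fold of R594C/R594C against WT of -0.52 ± 0.10 (SE) had an adjusted p = 0.0163, a level 0.698 times that of WT. The call was lost without R594C/R594C replicate 1 (adjusted p = 0.268), R594C/R594C replicate 2 (0.168) or WT replicate 4 (0.0698), in a fit of these genotypes alone (0.0759), with a replicate block (0.0733) and without cells holding Mki67 or Top2a UMIs (0.0575), while the log2 fold stayed between -0.57 and -0.45 over all alternatives.

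Hspa13 read 193, 161, 151 and 195 in WT, 163, 138, 182 and 146 in R594C/+ and 107 and 112 in R594C/R594C. Both homozygous values lay below the other 8, but the log2 fold of -0.65 ± 0.16 did not pass (SE, adjusted p = 0.114). That result held in 21 of 22 alternatives, while in the remaining one the fold passed. Stt3b read 244, 161, 197 and 173 in WT, 131, 144, 164 and 126 in R594C/+ and 157 and 112 in R594C/R594C. Here the heterozygous and homozygous values overlapped, with log2 folds against WT of -0.44 ± 0.15 (adjusted p = 0.558) and -0.50 ± 0.18 (adjusted p = 0.371).

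At the other end were Sec61g, Tmem258 and Sec62. Sec61g read 46.8, 82.5, 62.7 and 83.2 in WT, 108, 83.8, 53.7 and 94.1 in R594C/+ and 65.4 and 71.5 in R594C/R594C. Tmem258 read 392, 443, 347 and 480 in WT, 397, 367, 358 and 408 in R594C/+ and 400 and 429 in R594C/R594C. Sec62 read 373, 350, 291 and 320 in WT, 354, 292, 329 and 315 in R594C/+ and 308 and 333 in R594C/R594C. The genotypes overlapped for all 3, with log2 folds for R594C/R594C minus WT of 0.03, 0.03 and -0.03 (adjusted p = 0.989, 0.979 and 0.985).

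The median of each complex lay below 0. The median log2 fold of R594C/R594C minus WT was -0.33 over the 9 accessory OST subunits, -0.30 over the channel partners, -0.29 over the SRP subunits, -0.27 over TRAP, -0.26 over signal peptidase and -0.22 over the 3 channel genes. Ssr4, the member with the largest plasma cell difference, read 4351, 4470, 5124 and 4719 in WT, 5145, 4509, 4417 and 5040 in R594C/+ and 3720 and 3675 in R594C/R594C (log2 fold -0.30 ± 0.10, adjusted p = 0.289). Sec11c, Ssr3, Rrbp1, Srp19 and Stt3a were close to 0, at -0.07, -0.08, -0.06, -0.05 and -0.05.

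**Figure D4:**
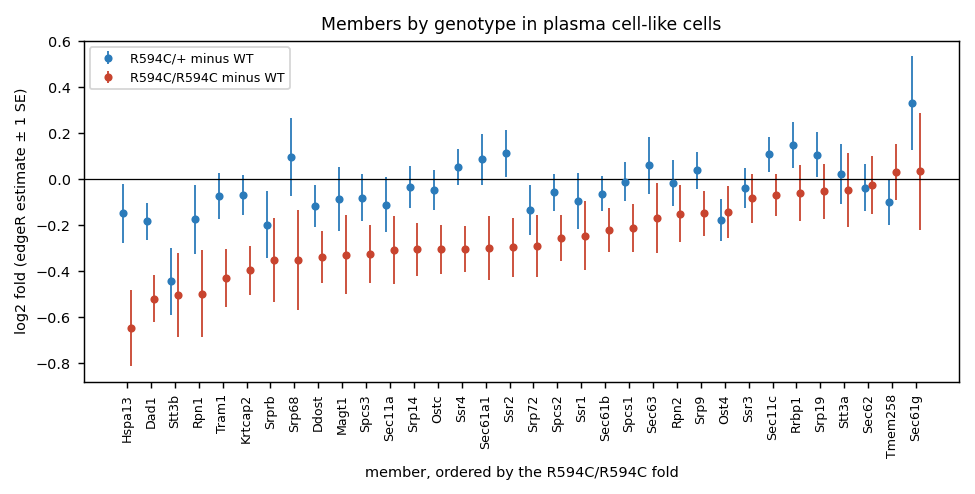
Log2 fold of each member in plasma cell-like cells (vertical axis, edgeR estimate with a bar of 1 SE), ordered by R594C/R594C minus WT (red) and with R594C/+ minus WT beside it (blue). The red points are below 0 for 32 of 34 members, from Hspa13 at -0.65, and the blue points lie on both sides of 0.

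Between R594C/+ and WT the edgeR test called 0 members, where 0.118% of genes were called, and DESeq2 also called 0. The log2 fold was below 0 for 23 and above 0 for 11, with a median of -0.05, and 2 members had an unadjusted p under 0.05. Taken from mean CPM levels, the median log2 difference was -0.071 for the members and -0.028 for all 6788 genes. In R594C/R594C minus R594C/+ the edgeR test called 0 members, where 0.221% of genes were called, and DESeq2 called 1. Here 31 members lay below 0, with a median of -0.20, and 10 had an unadjusted p under 0.05. From mean CPM levels the median log2 difference was -0.22 for the members and -0.009 for all 6788 genes. The comparisons share the R594C/R594C or the WT replicates with the first one.

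The 57 pathway genes, of which 43 were tested in plasma cell-like cells, gave 0 calls by edgeR in each of the 3 genotype comparisons, with 1 or 2 genes at an unadjusted p under 0.05. For R594C/R594C minus WT 27 of the 43 lay below 0, with a median log2 fold of -0.09.

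**Figure D5:**
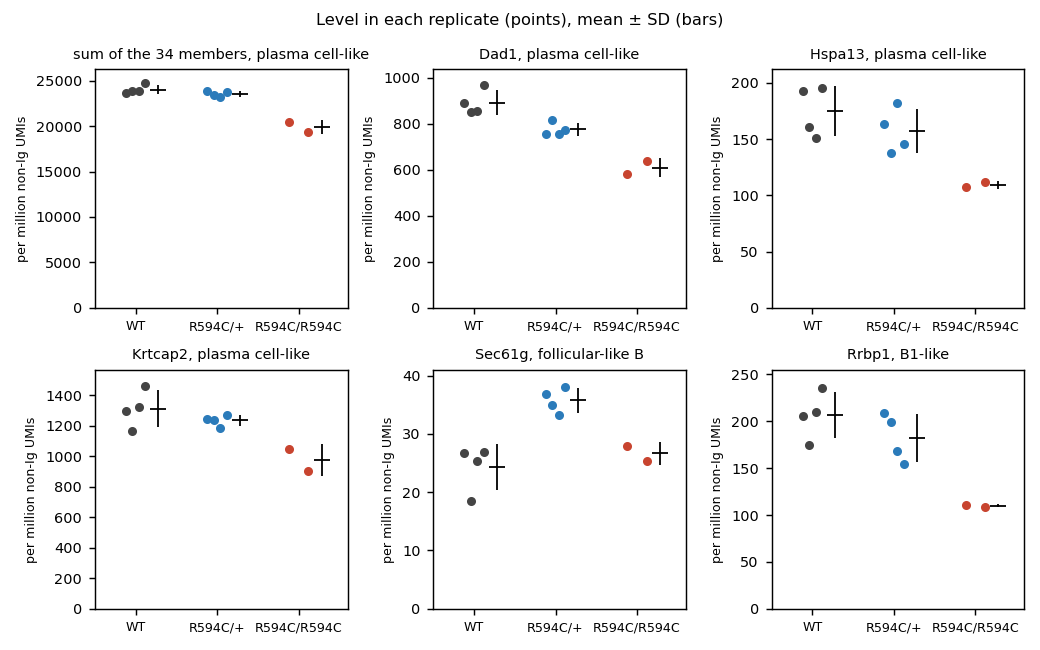
Level in CPM (vertical axes, from 0) in each replicate, with the mean and a bar of 1 SD beside the points, for the sum of the 34 members, Dad1, Hspa13 and Krtcap2 in plasma cell-like cells, Sec61g in follicular-like B cells and Rrbp1 in B1-like cells. The 2 R594C/R594C points lie below all WT points in every panel but that of Sec61g, where the 4 R594C/+ points are the highest.

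Other measures of the plasma cell-like class also differed between the genotypes, and their part in the result was not tested. Immunoglobulin took 55.9% and 56.7% of UMIs in the R594C/R594C replicates and 59.4% to 62.4% in the others. Summed transitional B markers (3 of 8 above every WT replicate in both homozygous ones, Rag1 at 0) read 2165 to 2311 CPM in R594C/R594C, 1295 to 1748 in WT and 1597 to 2181 in R594C/+. Summed neutrophil markers (3 of 11 above every WT replicate) read 44.8 to 54.6 in R594C/R594C, 14.2 to 32.2 in WT and 144 to 273 in R594C/+, and erythroid markers (4 of 8) 114 to 132, 19.9 to 48.2 and 132 to 158. The 12 plasma cell markers summed to 93952 to 118069 in R594C/R594C and 75618 to 109516 in WT, with 2 of the 12 below every WT replicate. Most of these sums was the marker Jchain, at 86163 and 109616 in R594C/R594C and 67364 to 102145 in WT. The sums therefore say little about the other markers. Cells with an Mki67 or Top2a UMI made up 34.6% in both R594C/R594C replicates and 18.6% to 35.6% in WT.

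The share of IgM cells differed between replicates of each genotype, from 36.9% to 80.0% in WT and from 37.4% to 88.9% in R594C/R594C. Among IgM cells alone, a comparison chosen after seeing the data, the median log2 fold of the members for R594C/R594C minus WT was -0.32 and 0 members were called by edgeR (Dad1 -0.45, adjusted p = 0.236).

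In follicular-like B cells the differences between genotypes were small. R594C/R594C minus WT gave 0 calls by edgeR and by DESeq2, where 0.255% of 10574 genes were called, with 5 members at an unadjusted p under 0.05 and a median log2 fold of -0.05. The summed level was 3906 and 3994.5 CPM in R594C/R594C, within or just below the WT range of 3938 to 4251. Both R594C/R594C replicates lay below every WT replicate for 8 members, where 5.77% of genes did so, and above for 0. R594C/+ minus WT gave 1 call, where 0.359% of genes were called, and R594C/R594C minus R594C/+ gave 0 by both tools, where 0.473% were called, with 6 at an unadjusted p under 0.05. Dad1 in particular read 517, 528, 448 and 466 in WT and 482 and 533 in R594C/R594C follicular-like B cells, which overlapped.

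The 1 call was Sec61g, the gamma subunit of the channel. It read 26.7, 18.5, 25.4 and 26.9 in WT, 36.9, 34.9, 33.2 and 38.0 in R594C/+ and 28 and 25.3 in R594C/R594C. The R594C/+ values lay above all others, with a log2 fold over WT of 0.58 ± 0.12 (SE, adjusted p = 0.0101), 1.49-fold. The call was lost without WT replicate 2 (adjusted p = 0.0899) or R594C/+ replicate 4 (0.0753). With sex, read from Xist, as a covariate the log2 fold was 0.79 (adjusted p = 0.00124). Every R594C/+ replicate had Xist, while of the WT replicates only replicate 2 did, which held the lowest Sec61g of WT. The fit with sex thus leans on few replicates, and the part of sex in this call was not tested on its own. Looked up after these values were seen, Sec61g in R594C/+ minus WT had a log2 fold above 0 in 10 of the 11 other classes that tested it (median 0.44, lowest adjusted p = 0.359), T cells and dendritic cells included. These classes came from the same replicates and captures, so they are not independent repeats. How often other genes lay above 0 in as many classes was not tested.

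Whether the genotype difference itself differed between plasma cell-like and follicular-like B cells was tested as an interaction. It called 0 members for R594C/R594C minus WT, where 0.0673% of 10399 genes were called, 0 for R594C/+ minus WT, where 0% were called, and 0 for R594C/R594C minus R594C/+, where 0.202% were called. At an unadjusted p under 0.05 there were 5, 1 and 4 members, and DESeq2 was not run on this test. For R594C/R594C minus WT, 33 of 34 differences were below 0, with a median of -0.14 against 0.02 for all genes, and Dad1 had a difference of -0.57 ± 0.13 (SE, adjusted p = 0.0528).

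Over 14 other named classes, 419 member tests were made in each comparison. R594C/R594C minus WT gave 1 call, where 0.0917% of 85019 gene tests were called, with 40 at an unadjusted p under 0.05. R594C/+ minus WT gave 0, where 0.495% were called, with 33 at an unadjusted p under 0.05. R594C/R594C minus R594C/+ gave 1, where 0.101% were called, with 43 at an unadjusted p under 0.05. Both calls were Rrbp1 in B1-like cells, where 0.362% and 0.238% of 8833 genes were called in these comparisons. The B1-like class (1823 cells) was named with 4 of its 10 listed markers raised, just at the share of 0.4 needed.

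The summed level of the members was below every WT replicate in both R594C/R594C replicates of some other classes as well. It ran from 3332 to 3360 against 3831 to 4296 CPM in type 2 dendritic cell-like cells and from 3608 to 3803 against 4194 to 5097 in monocyte-like cells. In natural killer-like cells it ran from 4078 to 4181 against 4264 to 4581, in B1-like cells from 3975 to 4232 against 4320 to 4826, and in migratory dendritic cell-like cells from 2081 to 2267 against 2303 to 3753. The 2 genotypes overlapped in germinal centre-like, transitional-like and marginal zone-like B cells and in CD4 T-like, CD8 T-like and regulatory T-like cells. They also overlapped in cDC1-like, macrophage-like and neutrophil-like cells. A lower sum was therefore seen in some classes outside plasma cell-like cells, but not in all. How often sums of other genes showed this arrangement was not tested.

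Rrbp1 read 206, 175, 210 and 236 CPM in WT, 209, 199, 168 and 154 in R594C/+ and 111 and 109 in R594C/R594C B1-like cells. The homozygous values lay below all 8 others. The log2 fold was -0.86 ± 0.15 against WT (SE, adjusted p = 0.00222) and -0.71 ± 0.14 against R594C/+ (SE, adjusted p = 0.0236). Against WT the call was lost without R594C/R594C replicate 1 (adjusted p = 0.103) or 2 (0.055), and the one against R594C/+ without either of them (0.533 and 0.215) or without R594C/+ replicate 1 (0.0975) or 2 (0.0535). Summed markers of neighbouring classes overlapped between WT and R594C/R594C in B1-like cells: the sum of 9 marginal zone markers was 464 to 613 in WT and 514 to 589 in R594C/R594C, and that of 12 plasma cell markers 505 to 624 and 568 to 602. The sum of 9 follicular markers was 4833 to 5441 in WT and 4552 to 5176 in R594C/R594C, with 3 of the 9 below every WT replicate, and its part in the result was not tested. Against R594C/+, where the 12 plasma cell markers summed to 588 to 619, Jchain, the joining chain of secreted antibody and 1 of those markers, did not overlap. It read 118 to 159 in R594C/+, 65.1 and 84.8 in R594C/R594C and 64.1 to 104 in WT, and its part was not tested either. All of these sums can rest on a few abundant markers, and the B1 markers are not given by genotype. Rrbp1 averaged 244 CPM in marginal zone-like and 149 in follicular-like B cells. The part of class make-up in the Rrbp1 calls was not tested.

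Last, plasma cell-like cells were split by the heavy chain constant gene with the most UMIs into IgM and class-switched cells, within the 8 replicates that had at least 10 of each. Of the 34 members 3 were called, or 8.82%, where 5.29% of 5478 genes were called. Stt3b was lower in switched than in IgM cells in 8 of 8 replicates, at 95.0 ± 28.2 against 194 ± 42.7 CPM (SD, n = 8). The log2 fold was -1.06 ± 0.16 (SE, adjusted p = 9.23e-06), and the mean in follicular-like B cells was 177. IgM plasma cell-like cells were not tested against follicular-like B cells.

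Ssr4 was higher in switched cells in 8 of 8 replicates, at 5636 ± 853 against 3880 ± 685 (log2 fold 0.52 ± 0.09, SE, adjusted p = 4.29e-05). Rrbp1 was higher in 7 of 8, at 923 ± 145 against 659 ± 108 (log2 fold 0.46 ± 0.09, SE, adjusted p = 0.00064). Stt3a, the other catalytic subunit, did not pass (202 ± 41.3 against 171 ± 41.9, log2 fold 0.21, adjusted p = 0.494), nor did Spcs1 (1230 ± 128 against 1404 ± 138, log2 fold -0.22, adjusted p = 0.108), which was lower in 7 of 8. IgM cells of R594C/R594C replicate 2 had the lowest Ssr4 of the IgM samples, 2236 against 3910 to 4451 in the other 7.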

How the data were processed

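The authors deposited raw UMI counts of genes, antibodies and hashtags per barcode for 3 captures, 1 per genotype. Cell Ranger 5.0.0 made the matrices, per the file headers, and the submitters' processing notes also name STAR, Seurat 3.1.4 and mm10 without their roles. How barcodes were selected is not given in the sources used here. The lowest RNA total of a barcode was 500 UMIs. Antibody tags were not used here.

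A barcode needed 200 genes and a mitochondrial share of no more than 10%. HTODemux (Seurat 5.3.0, quantile 0.99) assigned hashtags and left 1840, 333 and 193 barcodes of WT, R594C/+ and R594C/R594C without a hashtag and 1301, 1977 and 1543 as hashtag doublets. Cells resembling simulated doublets (2 per barcode) were removed. The 41483 cells left were clustered on 2000 variable genes without the members and the pathway list (30 principal components, 20 neighbours, Leiden resolution 1.5, leidenalg 0.10.2), giving 37 clusters. A cluster was named where at least 3 markers, and a share of at least 0.4 of a list, were raised 2-fold and found in 10% of its cells.

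Counts were summed per replicate and class, with at least 10 cells each. Genotypes were tested with edgeR 4.0.16 (robust quasi-likelihood, TMM on all counts, filterByExpr) over the 10 replicates together, and classes and isotypes with each replicate as a block. Benjamini-Hochberg adjustment ran over all genes tested, at 0.05, and log2 folds are edgeR's estimates. Scripts were tested on simulated counts. The named genes were those called in a genotype comparison, in plasma cell-like cells the 3 highest and 3 lowest members for R594C/R594C minus WT, the 6 highest and 6 lowest for plasma cell-like minus follicular-like B cells, and the paralog pairs. The members and lists were chosen with earlier results of these data known. Alternatives were DESeq2 1.42.0, RLE scaling, total counts, no filter, the genotypes of a comparison alone, a replicate block, sex as a covariate, no immunoglobulin genes, a hashtag margin of 3, doublets kept, members among the clustering genes, no cycling cells, cells thinned to 1000 UMIs, and each replicate left out. Depth limits the precision of low members: a member had 22 to 4016 UMIs per replicate in plasma cell-like cells, and Srprb 7 to 34 in B1-like cells.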

Additional observations from a re-analysis of the deposited data

How the results depend on the processing

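In plasma cell-like cells, R594C/R594C minus WT, the count of members called went from 1 to 0 with a replicate block, in a fit of these genotypes alone, without cycling cells and in IgM cells only, to 3 with doublets kept, and ran from 0 to 2 with replicates left out. The median log2 fold was -0.25 with sex as a covariate and -0.26 without cycling cells, and ran from -0.30 to -0.19 with replicates left out. For R594C/+ minus WT the median was -0.009 with no filter and 0.025 with sex as a covariate. For R594C/R594C minus R594C/+, 1 member was called with DESeq2 and with no filter, and the median was -0.24 with no filter, -0.26 with sex as a covariate, -0.27 with doublets kept, -0.25 in IgM cells and -0.28 to -0.15 with replicates left out. In follicular-like B cells the call of Sec61g came and went with replicates left out (0 to 1 members), and R594C/R594C minus R594C/+ had 1 call with sex as a covariate. The count over the other classes ran from 0 to 3 with replicates left out.

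In the same comparison members near 0 changed sign. Sec61g was -0.027 with a replicate block, -0.024 with sex as a covariate, -0.030 with doublets kept and -0.11 to 0.13 with replicates left out. Tmem258 was -0.037 with doublets kept, -0.013 without cycling cells and -0.034 to 0.099 with replicates left out. Sec62 was 0.025 in IgM cells and -0.073 to 0.049 with replicates left out. For plasma cell-like minus follicular-like B cells the median was 2.24 with no filter, 2.49 with no replicate block, 2.13 with thinned cells and 0.97 on total counts, where Sec62 (-1.07), Dad1 (-0.62), Sec11a (-0.61) and Srp14 (-0.38) reversed. Stt3b was 0.033 with no replicate block and -0.116 to 0.033 with replicates left out. The causes were not tested. In all, 363 single-gene values kept their direction and side of the threshold. The other 356 summary values stayed close to the main value or, for the paralog ratios, kept their direction and side of the threshold. Counts of calls could still move a little. They ran from 32 to 34 for plasma cell-like minus follicular-like B cells and from 3 to 4 for switched minus IgM cells. Whether equal hashtag numbers pair the replicates could not be settled. Same-numbered replicates correlated from -0.04 to 0.09 in plasma cell-like and from -0.07 to 0.33 in follicular-like B cells. Not every replicate correlated best with its own number. The 2 R594C/R594C replicates were centred on their own mean, so a correlation of one forces its negative in the other. The value of 0.33 was that of R594C/R594C replicate 2 with WT replicate 2, which both had Xist. With 2 homozygous replicates, each leave-out fit assumes that the lone one varies like the other genotypes.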
